A study of Mus musculus with 12 samples.

Results

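Esr1 encodes oestrogen receptor alpha (ERα), and the effect of its deletion was examined in the arcuate nucleus of female mice fed chow, across gene families, pathways and ranked single genes. The comparison used 7 of the 12 RNA-sequencing libraries of the series, 4 from mutants and 3 from controls, chosen by their genotype and diet labels. Controls (Ctrl) carried loxP-flanked Esr1 alleles (Esr1 fl/fl), and mutants (NkxCre) carried the same alleles together with a Cre recombinase driven by Nkx2-1. Animals were 27 weeks old and on a mixed CD-1;129P2 background. The other 5 libraries came from control (n = 2) and mutant (n = 3) females that had spent 17 weeks on a high-fat diet (HFD) and are set beside the chow values as a second diet. They also entered the filter on low values, the level used in ranking and the limma fit, which estimates the spread from all 12 libraries. Nkx2-1 is a transcription factor of the ventral forebrain, so Cre acts in cells of that lineage beyond the arcuate nucleus, and the tissue was a hypothalamic dissection rather than a sorted cell type. The labels do not say which libraries share a litter or a dissection day, so p-values measure the spread between these samples only.

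ERα is a ligand-activated transcription factor that binds DNA at oestrogen response elements and changes transcription of nearby genes. In the arcuate nucleus it is carried by neurons that make kisspeptin, neurokinin B and dynorphin (KNDy neurons), by subsets of proopiomelanocortin and dopamine neurons, and by some glia, and it links circulating oestradiol to reproduction, energy use and bone. Because bulk tissue was measured, fewer cells of a type and less RNA per cell cannot be told apart.

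Expression is given as the abundance signal of the deposited table, whose scaling between libraries is not given in the sources used here. Its column totals lie near the scale of TPM (transcripts scaled to a fixed total per library). Fold changes are differences of group means on the log2(value + 1) scale, mutant minus control, which understates changes of genes with low values, and ratios are ratios of group means of the signal. Genes reaching a value of 1 in 2 or more of the 12 libraries were tested, which kept 15801 of 16640 genes. The groups of a gene are said not to overlap when every mutant chow library lay above, or every one below, every control chow library. Esr1 itself ranged from 7.29 to 19.8 in control chow and from 1.65 to 6.05 in mutant chow, so its groups did not overlap (log2 fold change -1.93 ± 0.41 SE, limma adjusted p = 0.694). Nkx2-1, whose promoter drives Cre, had 62.5 ± 17.5 (SD) over the 3 control and 65.1 ± 9.29 (SD) over the 4 mutant chow libraries. Column totals lay between 922172 and 1254999, with the largest in control chow replicate 2, and genes listed at 0 numbered between 201 and 1768, with the most in mutant chow replicate 3. Both libraries move several gene lists, and values without them are given where they matter.

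The adjusted threshold of 0.05 was passed by 3 genes of 15801 (0.0190%), namely Ccn3, Fst and Rps7, all higher in mutants, and by 1 gene when the fit held only the 7 chow libraries. No other gene named below passed it, and the descriptions that follow are of values and counts. At an unadjusted p under 0.05, 409 genes (2.59%) were higher and 277 (1.75%) lower in mutants. Together these were 686 genes (4.34%), below the share of 0.05 that this threshold passes when no gene differs. The groups did not overlap for 713 genes (4.51%), of which 401 (2.54% of those tested) were higher and 312 (1.97%) lower in mutants. Groups of 3 and 4 libraries separate in some genes without any effect of genotype, so these counts alone do not show one. The balance of directions depended on the scaling. With quantile normalisation 342 genes were higher and 407 lower without overlap, and 339 higher and 361 lower at an unadjusted p under 0.05. With columns rescaled to a common sum the numbers were 473 and 198 without overlap, and 516 and 166 at the unadjusted threshold. The shares of the deposited values are the background against which each list is read. Of the 713 genes, 36 were kept by the filter only through the chow group in which they were high, and such members are named where a list's count holds one. Across all genes tested the median log2 fold change was 0.01. The 89 lists and families examined held very different shares of non-overlapping genes, from none in 26 of them to 40.0% among microglia and macrophage markers.

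Microglia, the resident macrophages of the brain, prune synapses and clear debris, and the complement proteins of the C1q complex that they secrete mark material for removal. Of the 15 microglia and macrophage markers tested, 6 were higher in every mutant chow library than in every control chow library (40.0%), and none was lower. The 6 were Itgam, C1qb, Ctss, Tmem119, Csf1r and C1qc. The RefSeq promoter table held no entry for Tmem119 or Csf1r. Stretches upstream of the start site of the other 4 are shown because these genes stood apart together in mutants and because myeloid genes commonly hold binding sites of the factor PU.1. The sequences are from RefSeq on GRCm38.p6, on the strand of the gene, and hold up to 250 bases before the RefSeq start site, without bases that the gene annotation places inside the gene. Capitals mark GAGGAA, the purine-rich core that PU.1 recognises, and AGGTCA, the half-site of an oestrogen response element, each on either strand.
C1qb, chr4:136886201-136886450, minus strand: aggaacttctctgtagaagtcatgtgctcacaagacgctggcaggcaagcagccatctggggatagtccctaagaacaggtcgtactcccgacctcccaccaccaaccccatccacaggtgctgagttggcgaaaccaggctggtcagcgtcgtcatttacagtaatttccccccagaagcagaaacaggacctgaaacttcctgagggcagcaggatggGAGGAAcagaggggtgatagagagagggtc
C1qc, chr4:136893066-136893164, minus strand: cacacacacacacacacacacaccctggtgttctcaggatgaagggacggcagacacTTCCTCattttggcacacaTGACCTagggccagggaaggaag
Ctss, chr3:95526536-95526785, plus strand: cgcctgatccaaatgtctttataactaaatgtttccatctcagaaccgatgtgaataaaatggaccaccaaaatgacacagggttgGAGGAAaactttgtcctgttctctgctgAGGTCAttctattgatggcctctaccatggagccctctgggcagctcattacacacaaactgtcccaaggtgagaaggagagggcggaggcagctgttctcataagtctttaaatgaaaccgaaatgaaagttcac
Itgam, chr7:128062390-128062639, plus strand: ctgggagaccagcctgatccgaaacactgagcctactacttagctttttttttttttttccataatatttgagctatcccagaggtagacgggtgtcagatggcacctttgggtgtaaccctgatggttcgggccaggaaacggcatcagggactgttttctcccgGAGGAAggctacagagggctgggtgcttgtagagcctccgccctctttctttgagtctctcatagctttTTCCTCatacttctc

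Each of these 4 windows held GAGGAA, which 23.3% of all 32851 promoter windows in the RefSeq table hold. AGGTCA was present in C1qc and Ctss and in 14% of all windows. Of the 15093 windows of genes tested, 22.3% held GAGGAA and 11.2% held AGGTCA. Among windows of the non-overlapping genes, GAGGAA was present in 27.6% of 373 for genes higher in mutants and in 19.1% of 314 for genes lower, and AGGTCA in 13.7% and 12.1%. The windows of these 2 groups came from 293 and 240 gene symbols. The complete palindromic oestrogen response element was in 0 windows of either group and in 21 of all 32851. A match describes the letters of a window and not the binding of a factor, and a window without one says nothing about sites elsewhere.

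Ctss, the lysosomal protease cathepsin S, had signals of 76.7, 114 and 131 in control chow replicates 1 to 3 and of 200, 185, 167 and 173 in mutant chow replicates 1 to 4. C1qb, a chain of the initiator of the classical complement pathway, had 64.7, 84.0 and 87.7 in controls and 154, 136, 144 and 133 in mutants. Both separated the groups without overlap, and in both the lowest control library was replicate 1. The ratio of means was 1.69 for Ctss (log2 fold change 0.78 ± 0.19 SE, limma adjusted p = 0.803) and 1.80 for C1qb (0.85 ± 0.26 SE, adjusted p = 0.982). Itgam, the integrin alpha M chain of complement receptor 3, was 1.93 times as high in mutants, with 8.36, 4.15 and 5.45 in controls against 12.6, 10.7, 12.7 and 10.1.

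The remaining members apart followed in smaller steps. Tmem119 was 16.0, 17.5 and 16.3 in controls and 23.6, 30.0, 20.9 and 19.9 in mutants, and Csf1r, the receptor that sustains microglial survival, was 35.3, 37.3 and 35.8 against 44.4, 49.2, 59.0 and 48.6. Control values of both genes lay close together, and the lowest mutant library stood clear of the highest control. C1qc reached 129% of the control mean, with a gap of only 86.5 in the lowest mutant library against 81.2 in the highest control.

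Other microglial markers, Cx3cr1 and P2ry12 among them, did not separate the groups. Of the 15 markers tested, 11 had a positive fold change and 4 a negative one. C1qa was 74.4, 180 and 116 in controls and between 154 and 195 in mutants. Tyrobp, the adaptor of TREM2, was 15.1 in mutant chow replicate 3 and between 46.9 and 72.4 in the other 6 chow libraries, while P2ry12, a purine receptor of microglia, was highest in that same mutant library (64.5). The markers of border-associated macrophages were near 0, with Mrc1 at most 2.53 and Lyve1 at most 1.72 in any chow library, and both had lower means in mutants. Summed over the 15 markers, the signal ran from 437 to 714 in control chow and from 824 to 885 in mutant chow. The mean log2 level of the list was 4.38 ± 0.21 (SD) over the 3 control and 4.76 ± 0.11 (SD) over the 4 mutant libraries, without overlap. The median log2 fold change of the list was 0.46, against 0.01 over all genes, and it lay between 0.30, without control chow replicate 1, and 0.55, without control chow replicate 2, when 1 chow library was left out. Without control chow replicate 2 and mutant chow replicate 3 together it was 0.56, and 9 members were higher without overlap, where 10.2% of all genes were. Mean levels of some other lists did not overlap either. Those of complement, cytokine and serpin genes were higher in mutants. The filter would not have kept 1 of 17, 2 of 29 and 4 of 19 of these members without the mutant chow libraries. The serpin level was 2.85 to 3.07 in controls and 3.09 to 3.30 in mutants. Of the 15 serpins kept by the other groups, 0 were apart. The mean level of arcuate dopamine and growth hormone releasing neuron genes was lower in mutants. So was that of 37 endoplasmic reticulum (ER) stress and heat shock genes, at 6.35 to 6.45 against 6.46 to 6.68 in controls. Of these 37 genes, 29 had a negative fold change (median -0.11) and 1 was apart (2.7%).

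**Figure D1:**
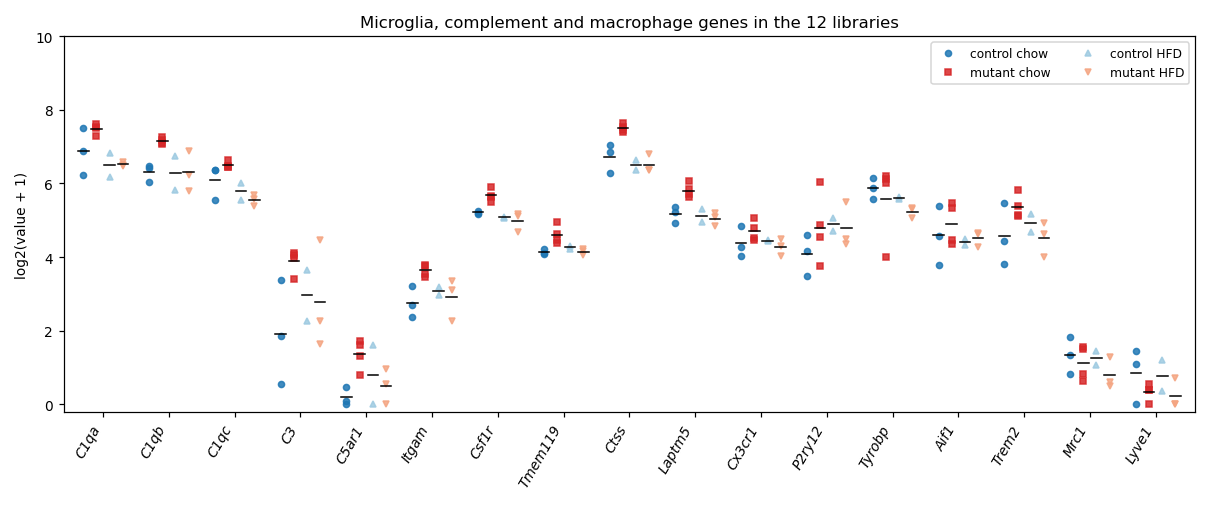
Signal on the log2(value + 1) scale (y axis) of microglia, complement and macrophage genes (x axis), with 1 point per library, colour and shape giving the group, and black bars giving group means. In C1qb, Ctss, Itgam, Csf1r and Tmem119 the 4 mutant chow libraries lie above the 3 control chow libraries, while the macrophage genes Mrc1 and Lyve1 lie near the bottom of the scale in every group.

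The complement list, which shares its 3 C1q genes with the microglial list, had 4 of 17 members higher without overlap (23.5%) and none lower, with a median log2 fold change of 0.43, or 0.65 without control chow replicate 3. C3, the central component cleaved by all 3 complement pathways, was 9.38, 0.457 and 2.59 in controls and 14.8, 9.64, 15.6 and 16.4 in mutants. Its control values differed widely, and control replicate 1 was just below the lowest mutant. C5ar1, the receptor of the C5a fragment, was at most 0.385 in controls and 2.29, 2.03, 1.47 and 0.739 in mutants, all close to the lower end of the scale. It passed the filter only through the mutant chow libraries, and over the 16 members kept by the other groups 3 were apart (18.8%).

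The interferon response and antigen presentation list had 39 of 42 members with a positive fold change and a median of 0.39, and 4 members were higher without overlap (9.52%). Irf8, a transcription factor of the myeloid lineage, was 1.72, 3.40 and 3.09 in controls and 6.63, 5.93, 16.5 and 5.13 in mutants. The guanylate-binding protein gene Gbp3 had a ratio of 2.68, and the antiviral GTPase genes Mx2 and Mx1 had ratios of 2.64 and 2.25. Mx1 passed the filter only through the mutant chow libraries, and 3 of the 40 members kept by the other groups were apart (7.5%). Much of the list was led by mutant chow replicate 3, where Cd74, the invariant chain of MHC class II, was 520 against 94.3 to 290 in the other mutants and 41.6 to 201 in controls. Without that library the median of the list was 0.19, and it was 0.23 without control chow replicate 1 and 0.60 without control chow replicate 2. The mean log2 level of the list overlapped between the groups, at 3.73 to 4.36 in controls and 4.20 to 5.07 in mutants.

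Cytokine, chemokine and NF-kappaB genes had 2 of 29 members higher without overlap (6.90%). Ccl5, a chemokine that draws T cells and monocytes, ranked first by the gap between groups among the genes described here, with 2.36, 0 and 1.04 in controls and 15.6, 9.80, 17.4 and 7.91 in mutants (log2 fold change 2.79 ± 0.65 SE, limma adjusted p = 0.759). Tlr4, the endotoxin receptor, was between 1.13 and 1.38 in mutants and at most 1.12 in controls. It passed the filter only through the mutant chow libraries, and Ccl5 was the 1 apart of the 27 members kept by the other groups (3.7%). Among 55 autophagy and lysosome genes, 3 were higher without overlap and 1 was lower (7.27%). The higher members were Ctss, Laptm5 (ratio 1.56), a lysosomal membrane protein of blood-derived and microglial cells, and Gusb, while Optn, an autophagy receptor, was at 71.0% of the control mean. The median of that list was 0.06, and it was -0.01 without mutant chow replicate 4.

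Blood and myelin markers were also higher on average in mutants, and their part in these values was not tested. The 8 blood cell markers had a median of 0.81, or 0.49 without control chow replicate 1, and 2 of them did not overlap, Alas2, the haem synthesis enzyme of red cells (ratio 3.42), and the beta globin gene Hbb-bs, which was 249, 597 and 452 in controls and 632, 709, 754 and 993 in mutants. The summed blood signal was 684 to 1730 in controls and 1650 to 3240 in mutants. The 18 oligodendrocyte markers had a median of 0.65 with 0 members apart, and the list level was lowest in control chow replicate 1 and mutant chow replicate 1. Their median was 0.34 without the first of these and 0.42 without mutant chow replicate 2. Without mutant chow replicate 1 it was 0.97, with 9 members apart and higher, and without control chow replicate 3 it was 0.93, with 3. Of all 15801 genes, 688 were higher without overlap in the first of these settings and 1073 in the second, against 401 with all libraries. With the oligodendrocyte level as a covariate the microglial median was 0.43. Microglial markers higher at a limma unadjusted p under 0.05 numbered 3 with that covariate and 7 without it. Markers of neurons (median -0.03), astrocytes (0.07), endothelial cells (-0.10) and mural cells (-0.12) lay near 0.

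**Figure D2:**
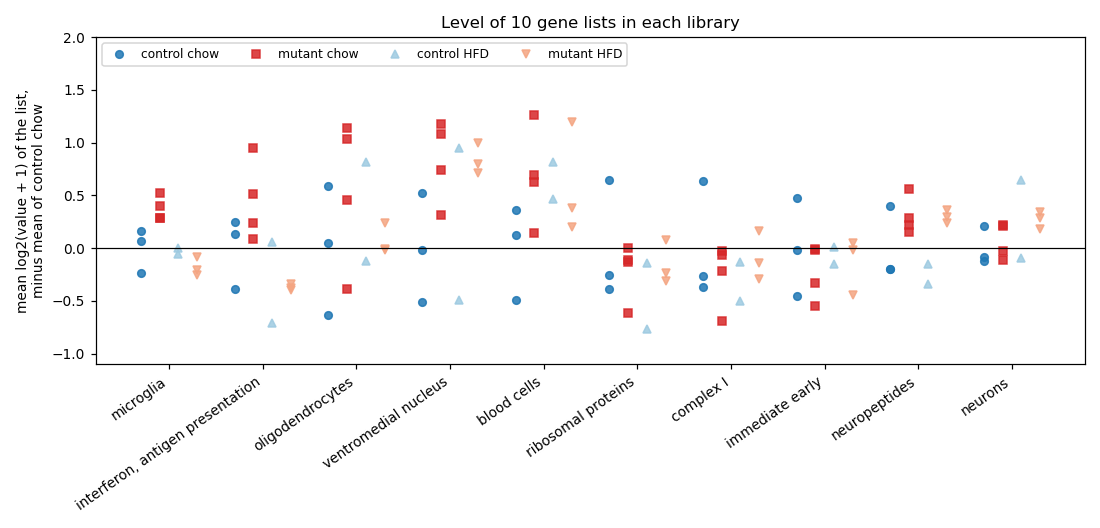
Mean log2(value + 1) of each of 10 gene lists in every library, relative to the mean of the 3 control chow libraries (y axis), by list (x axis), with colour and shape giving the group. The microglial level separates the 2 chow groups and its HFD points sit with control chow, whereas the oligodendrocyte, ribosomal and complex I levels spread as widely within a group as between groups. Some lists not plotted, among them the complement and ER stress lists, also have levels that separate the 2 chow groups.

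Neuropeptides are the signals by which arcuate neurons address other hypothalamic cells. Of 41 neuropeptide precursor genes, 4 were higher without overlap and 1 lower (12.2%), including Grp and Penk. Nts, which encodes neurotensin, was 30.3, 20.1 and 34.3 in controls and 42.7, 45.9, 72.0 and 64.6 in mutants (ratio 1.99, log2 fold change 0.97 ± 0.25 SE, limma adjusted p = 0.865). Pdyn, the dynorphin precursor of KNDy neurons, was 78.7, 86.1 and 49.0 in controls and 144, 159, 107 and 94.0 in mutants (ratio 1.77). Neither peptide overlapped, with mutant replicates 3 and 4 highest for Nts and replicates 1 and 2 highest for Pdyn. Prok2, a secreted output signal of the suprachiasmatic clock, went the other way, with 4.12, 8.02 and 9.0 in controls and 1.09, 1.41, 2.75 and 1.11 in mutants, or 22.6% of the control mean. The median over the precursors was 0.25, but it was -0.01 without control chow replicate 3 and 0.45 without control chow replicate 2. Of 8 opioid peptide and receptor genes, Penk and Pdyn were higher and Oprl1 lower without overlap (37.5%), and all 3 belong to the neuropeptide lists as well.

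Precursors that define arcuate feeding circuits overlapped between the groups. Pomc had a log2 fold change of 0.25 ± 0.44 SE, Cartpt 0.04 ± 0.33, Npy 0.14 ± 0.59 and Agrp -0.26 ± 0.60. Tac2, which encodes neurokinin B, was 260, 700 and 289 in controls and between 653 and 1026 in mutants, so that control chow replicate 2 lay within the mutant range. The 10 KNDy neuron genes as a list did not follow Pdyn and Tac2, with 6 negative fold changes, a median of -0.175, and Pdyn higher and Rxfp1, the relaxin receptor, lower without overlap (20%). Ghrh, the growth hormone releasing hormone gene, had 0.32 ± 0.48, and Sst, its inhibitor somatostatin, -0.69 ± 0.39. Pcsk1, a convertase that cuts peptide precursors, was 34.8, 31.7 and 32.7 in controls and 53.2, 34.9, 45.1 and 39.9 in mutants. It was the member apart among 18 processing and granin genes (5.56%).

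Among 48 neuropeptide receptors, 3 were higher and 5 lower without overlap (16.7%), and the median was 0.11. Oxtr, the oxytocin receptor and an oestrogen-induced gene in several tissues, was 5.93, 4.54 and 2.59 in controls and 10.8, 8.66, 18.4 and 8.09 in mutants (ratio 2.64, log2 fold change 1.20 ± 0.35 SE, limma adjusted p = 0.956). Trhr, a receptor of thyrotropin-releasing hormone, was 5.74, 3.89 and 4.41 against 9.62, 9.71, 15.7 and 9.14. For both, mutant chow replicate 3 was the highest library and the other 3 mutants lay close together above the controls. Npffr1, a receptor of RFamide peptides, had a ratio of 1.99.

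The receptors lower in mutants were Rxfp1, Mc4r, Nmur2, Oprl1 and Sstr2. Rxfp1 was 6.08, 7.66 and 8.39 in controls and 2.14, 1.43, 4.66 and 2.11 in mutants. Mc4r, through which melanocortins lower food intake, was 2.63, 2.85 and 2.10 in controls and 0.628, 1.79, 0 and 0 in mutants. Its values are near the lower end of the scale, and 2 mutant libraries list it at 0. Nmur2, a neuromedin U receptor, stood at 46.5% of the control mean, and Oprl1, the nociceptin receptor, and Sstr2, a somatostatin receptor, stood at 76.6% and 79.1%.

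Genes listed as oestrogen responsive did not stand apart as a group. Of 25 such genes, Oxtr was the 1 member apart (4.0%), 15 fold changes were positive and 10 negative, and the median was 0.06, or -0.01 without mutant chow replicate 4. The list was not split by direction of response, so its balance of signs cannot show whether the response was lost. The RefSeq promoter window of Oxtr holds AGGTCA. Pgr, the progesterone receptor gene and a classic ERα target, was 10.8, 5.91 and 8.48 in controls and 6.63, 7.49, 8.06 and 5.36 in mutants (log2 fold change -0.23 ± 0.37 SE). Greb1 (0.16 ± 0.66) and Prlr, the prolactin receptor (-0.20 ± 0.28), overlapped as well. None of 31 nuclear receptor genes on the list separated the groups. Of 17 ERα coregulators, Med1 (ratio 1.72) and Foxa1 were higher without overlap (11.8%) and none was lower, although Foxa1 was at most 0.288 in controls and at most 1.79 in mutants. Foxa1 passed the filter only through the mutant chow libraries, and Med1 was the 1 apart of the 16 members kept by the other groups (6.25%).

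Slc6a3, the dopamine transporter, was among the ranked genes lower in mutants. It was 16.6, 7.02 and 6.82 in control chow and 1.21, 1.68, 4.34 and 2.18 in mutant chow (23.2% of the control mean, log2 fold change -1.71 ± 0.43 SE, limma adjusted p = 0.865). Th, the rate-limiting enzyme of dopamine synthesis, overlapped, with 193, 98.0 and 130 against 78.4, 116, 179 and 153. Of the 15 genes of arcuate dopamine and growth hormone releasing neurons, Slc6a3 and Sstr2 were the 2 apart, both lower (13.3%). The paired homeobox genes Dlx5 and Dlx6, which lie next to each other on chromosome 6 and specify GABA neurons, were the 2 members apart among 47 patterning factors (4.26%). Dlx6 was 19.5, 33.6 and 31.5 in controls and 12.2, 5.81, 6.79 and 10.3 in mutants (31.2% of control), and Dlx5 was 13.7, 7.27 and 7.99 against 5.68, 5.85, 0 and 4.61. Antisense transcripts overlap Dlx6, and the use of strand in counting is not given in the sources used here.

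Markers of the ventromedial nucleus, which borders the arcuate nucleus, had a median of 0.99 over 12 genes, or 0.64 without control chow replicate 3, and 11 of 12 fold changes were positive. Bdnf, a neurotrophin, was 3.37, 1.73 and 1.44 in controls and 8.91, 8.85, 7.42 and 3.86 in mutants, and Fam19a1 was 4.81, 2.26 and 1.54 against 4.96, 5.05, 10.5 and 5.90. The identity factors Nr5a1 and Fezf1 overlapped and varied widely within groups, with Fezf1 between 0.432 and 10.3 in controls and between 7.25 and 30.8 in mutants. The mean log2 level of the list was 3.10 to 4.13 in controls and 3.92 to 4.78 in mutants. With this level as a covariate the median of the microglial list was 0.61, that of the neuropeptide receptors went from 0.11 to -0.08, and that of the dopamine and growth hormone releasing neuron genes from -0.20 to 0.05. The receptor median also turned to -0.07 without control chow replicate 2, and it was 0.34 without control chow replicate 1. That of the dopamine and growth hormone releasing neuron genes was -0.06 without control chow replicate 1 and -0.13 without control chow replicate 3. How far the dissection contributed to the peptide and receptor values was not tested.

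Growth factor families held few members apart, in several lists at a share near the 4.51% of all genes. Igf1, insulin-like growth factor 1, was 0.351, 1.95 and 0.538 in controls and 11.2, 3.79, 10.4 and 6.19 in mutants (log2 fold change 2.19 ± 0.43 SE, limma adjusted p = 0.508), and an antisense transcript overlaps it. Every mutant value was above every control value, and the mutants varied about 3-fold among themselves (3.79 to 11.2). Igf1 and Ccn3 were the members apart among 13 CCN and IGF-binding genes (15.4%). Of 51 TGF-beta superfamily genes, 2 were higher without overlap (3.92%), Fst and Tgfb1 (ratio 1.60). In the WNT list the receptor gene Fzd10 and the inhibitor gene Nkd1 were the 2 apart of 48 (4.17%), a share close to the 4.51% of all genes. Of 31 Notch and Hedgehog genes, Hes5, a Notch target, was higher (ratio 2.14) and Gas1 lower without overlap (6.45%). Of 45 neurotrophins and other growth factors, Bdnf and Gdnf were higher and Hbegf (74.0% of control) and Gfra2 (84.6%) lower without overlap (8.89%). Gdnf was at most 1.22 and passed the filter only through the mutant chow libraries, and 3 of the 42 members kept by the other groups were apart (7.14%). Among 19 secreted factors that regulate bone and mineral, Lcn2, lipocalin 2, was the member apart (5.26%), with 0.926, 1.30 and 1.57 in controls and 12.6, 4.05, 4.41 and 2.04 in mutants. Socs2, a feedback inhibitor of growth hormone signalling (ratio 2.16), was the member apart among 41 leptin, insulin and mTOR genes (2.44%). Lepr, the leptin receptor, had a log2 fold change of 1.16 ± 0.47 SE with overlapping groups.

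Immediate early genes, which neurons induce within minutes of activity, had 4 members lower and 1 higher without overlap of 37 (13.5%), with a median of -0.22. Fosb was 39.4, 12.9 and 13.4 in controls and 5.47, 2.98, 2.54 and 11.9 in mutants, and Arc was 28.2, 20.7 and 12.6 against 11.1, 6.92, 2.02 and 11.4. Maff and Sik1 were at 59.9% and 71.5% of control, and the higher member was Bdnf. Control chow replicate 1 was the highest library of the list, and without it the median was -0.07. Without control chow replicate 3 it was -0.47 and 10 members were lower without overlap. In that setting 775 of all 15801 genes were lower without overlap, against 312 with all libraries. Fos itself overlapped, with 65.3, 18.1 and 12.7 in controls and between 13.7 and 46.1 in mutants.

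Cytosolic ribosomal protein and respiratory chain genes were lower on average in mutants, and these averages changed sign or came close to 0 without 1 control library. Of 82 ribosomal protein genes, 73 had a negative fold change (median -0.31), yet the only 2 apart were both higher, Rps7 and Rpl10 (2.44%). Ribosomal protein genes have near-identical processed copies, which makes their values uncertain. Rpl10 was 378, 211 and 280 in controls and 520, 515, 410 and 519 in mutants (ratio 1.70). The median was -0.26 for 36 complex I subunits, -0.28 for 15 complex IV subunits, -0.20 for 78 mitochondrial ribosomal proteins and -0.17 for 37 proteasome subunits. Without control chow replicate 2, whose column total was the largest, these medians were 0.03 for ribosomal proteins, 0.07 for complex I, 0.03 for complex IV, -0.02 for mitochondrial ribosomal proteins and -0.03 for the proteasome. Without both that library and mutant chow replicate 3 they were 0.15, 0.19, 0.18, 0.07 and 0.04, so the direction of these 5 lists turned. Without mutant chow replicate 3 alone they were -0.18, -0.10, -0.14, -0.10 and -0.11. The lowest medians were -0.51 for ribosomal proteins and -0.34 for mitochondrial ribosomal proteins, both without control chow replicate 1, and -0.46 for complex I and -0.48 for complex IV, both without control chow replicate 3. Single members apart were Cox6a2, a muscle-type complex IV subunit (43.0% of control), Mrpl19 (47.8%), and the proteasome genes Psmd10 (69.2%) and Psmc2 (77.1%). The shares apart were 6.67% for complex IV, 1.28% for mitochondrial ribosomal proteins and 5.41% for the proteasome.

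**Figure D3:**
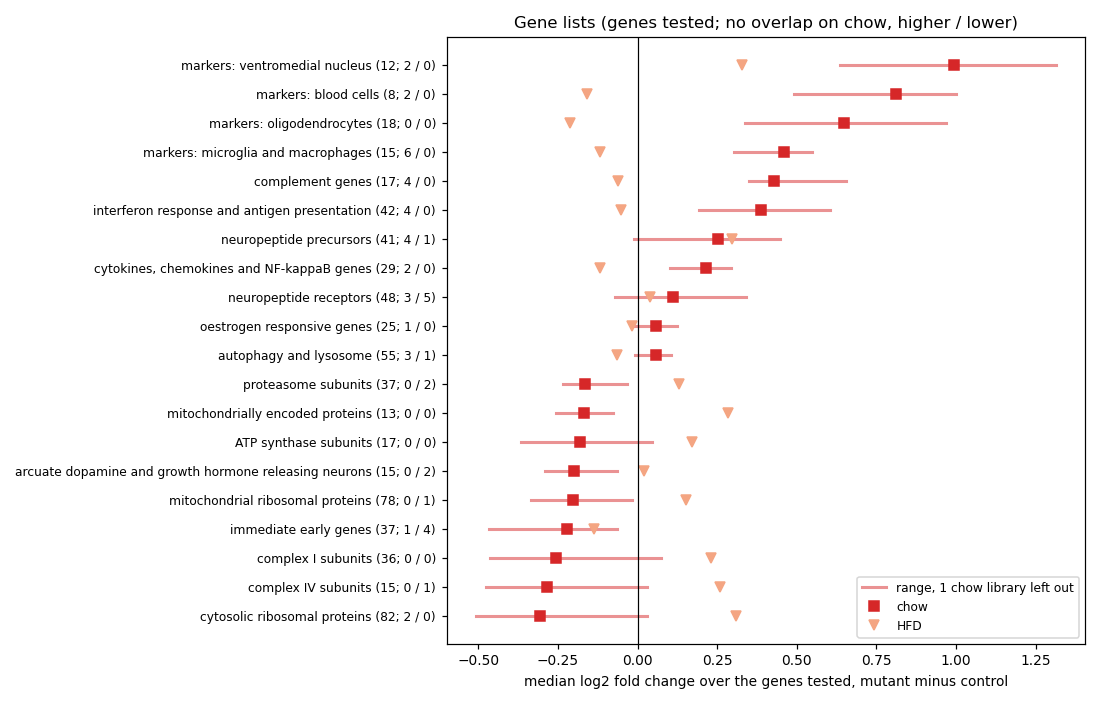
Median log2 fold change on chow (red squares) and on HFD (orange triangles) for 20 gene lists (y axis), with the x axis giving mutant minus control and the red line the range when any 1 of the 7 chow libraries is left out. The immune and marker lists at the top stay right of 0 on chow, while the lines of the ribosomal, complex I, complex IV and ATP synthase lists cross 0.

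To order single genes, protein-coding genes with non-overlapping groups and a mean of at least 5 over the 12 libraries (538 genes, 284 higher and 254 lower in mutants) were ranked by the gap on the log2(value + 1) scale between the nearest libraries of the 2 groups. The 15 higher genes with the widest gap included Ccn3, Fst, Rps7, Grp and Penk, and the other 10 are described here. At the edge of the ranking, Rtkn was inside with a gap of 0.52 and Fam173b outside with 0.51, and on the lower side Gtdc1 was inside with 0.41 and A430033K04Rik outside with 0.38. Since the ranking used these values, they are given as a description.

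The 10 higher genes include Ccl5, C1qb and Trhr, whose values are given above. Vwf, the clotting factor of endothelium, was 1.07, 5.62 and 2.85 in controls and 12, 19.3, 9.85 and 10.4 in mutants. Sox17, an arterial endothelial factor, was 5.05, 7.06 and 5.57 against 11.2, 13.5, 14.1 and 19.7. Of the 15 endothelial markers, 3 had a positive fold change and 0 were apart. Rec8, a meiotic cohesin subunit, was 1.29, 4.17 and 0.571 in controls and 7.47, 9.21, 9.53 and 11.3 in mutants (ratio 4.67, log2 fold change 1.96 ± 0.45 SE, limma adjusted p = 0.716). Rtkn had a ratio of 2.43, and Trmt5, a mitochondrial and cytosolic tRNA methyltransferase, was 54.9 in mutant chow replicate 4 and 20.4 to 24.8 in the other mutants, against 7.46 to 13.4 in controls. Cd276, an immune checkpoint ligand, was 17.6, 4.91, 4.24 and 15.7 in mutants, all above controls of 1.63 to 2.63. Prickle4 had a ratio of 2.77. Prickle4, Sox17, Cd276 and Rtkn overlap other annotated genes, so their reads may be shared with them.

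Of the 15 lower genes, Lca5, which encodes the ciliary protein lebercilin, had the widest gap, with 12.3, 19.9 and 32.0 in controls and 6.14, 4.83, 3.61 and 5.88 in mutants (23.9% of control, log2 fold change -1.79 ± 0.35 SE, limma adjusted p = 0.508). Mob1a, an adaptor of the Hippo pathway kinases, was 25.9, 41.3 and 32.6 against 15.3, 14.7, 13 and 12.9, and its relative Mob3b was at 51.7% of control. The mutant values of Mob1a lay close together, and so did the control values of Mob3b, 8.27, 8.21 and 9.09, against 2.92, 4.29, 5.15 and 5.27 in mutants. Sox6, a transcription factor of interneurons and oligodendrocyte precursors, was at 34.6%, Olfm2, a secreted olfactomedin, was 101, 151 and 106 against 51.1, 70.5, 34.5 and 68.8, and Ramp3, the partner that tunes calcitonin-family receptors, was at 45.1%. Akr1e1 (48.5%) and Gtdc1 (62.8%) had close control values, 24.0 to 28.4 and 24.0 to 25.0. Ppil6, Morn5 and Ahcy were listed at 0 in mutant chow replicate 3, the library with the most genes at 0, and Arhgef33 was 0.355 there. In the other 3 mutants Ppil6 was 3.04 to 9.28 against 17.7 to 26.2 in controls, Morn5 6.09 to 7.70 against 11 to 14.2, and Ahcy 1.67 to 1.86 against 3.12 to 21.1. Tmsb15b2 (32.9% of control) overlaps near-identical thymosin genes and is uncertain. Lca5, Arhgef33, Sox6, Dlx6, Mob3b, Ahcy, Morn5, Ramp3 and Gtdc1 also overlap other annotated genes, so their reads may be shared with them.

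**Figure D4:**
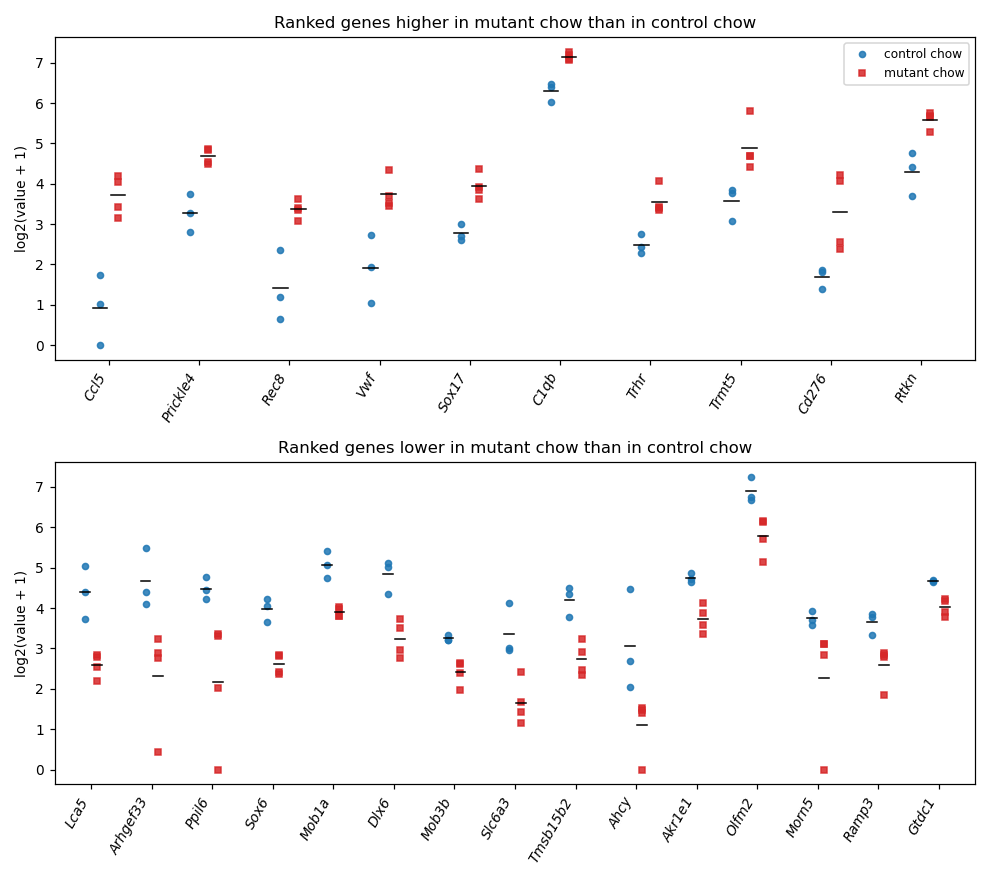
Signal on the log2(value + 1) scale (y axis) of the 10 described genes higher (top) and the 15 genes lower (bottom) in mutant chow, ordered from left to right by the gap between groups (x axis), with blue circles for the 3 control and red squares for the 4 mutant chow libraries and black bars for group means. No red square shares the range of the blue circles in any gene, and the low red squares of Arhgef33, Ppil6, Ahcy and Morn5 are all from mutant chow replicate 3.

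The non-overlapping genes resembled the other genes in length and type. Median summed exon length was 4259 bases for those higher, 4031 for those lower and 4247 for all genes tested, and 97.0%, 98.4% and 96.2% were protein coding. Their median level was 12 for those higher, 16.7 for those lower and 17.5 for all genes, and 29 of the 401 higher genes would not have been kept by the filter without the mutant chow libraries. By autosome and X chromosome the share ranged from 2.86% on chromosome 14 to 5.93% on chromosome 13. Within 10 Mb of Nkx2-1 on chromosome 12, the gene whose promoter drives Cre, 5 of 65 genes tested did not overlap (7.69%), against 4.51% of all genes. Foxa1, which passed the filter only through the mutant chow libraries, is among these 5. Within 10 Mb of Rps7 on the same chromosome 6 of 72 did not overlap (8.33%), Rps7 included. Within 10 Mb of Esr1 on chromosome 10 the count was 2 of 51 (3.92%), Esr1 itself and Stx11.

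The HFD groups hold other animals than the chow groups, although 1 fit gave the spread for both. In them Esr1 was 15.3 and 22.4 in controls and 10.7, 16.6 and 11.9 in the libraries labelled mutant HFD, so the label and the deleted gene do not separate there, and the directions below rest on the labels. Of the 15 genes ranked higher on chow, 8 had a positive fold change on HFD (median 0.01), and of the 15 ranked lower, 9 had a negative one (median -0.09). Over all genes 46.7% had the same sign on both diets. Rec8 was 0.530 and 3.16 in control HFD and 12.5, 6.80 and 9.01 in the libraries labelled mutant HFD (log2 fold change 2.01, limma unadjusted p = 0.00251). Lca5, Mob3b, Slc6a3 and Gtdc1 were lower without overlap on HFD too, where 7.27% of genes were higher and 8.46% lower without overlap. Gtdc1 was 41.9 and 44.2 in control HFD and 19.4, 25.2 and 27.2 in the libraries labelled mutant HFD (log2 fold change -0.84, unadjusted p = 0.00318). The immune lists had medians near or below 0 on HFD, at -0.12 for microglia, -0.06 for complement and -0.05 for interferon genes, and Ctss had a log2 fold change of 0.02 and C1qb of 0.01. Nts was higher on both diets, with 23.1 and 17.0 in control HFD and 43.2, 29.9 and 37.0 in the libraries labelled mutant HFD (log2 fold change 0.84, unadjusted p = 0.0145). At an unadjusted p under 0.05 on HFD, 349 genes (2.21%) differed by genotype. No gene passed the adjusted threshold for a difference between the diets (limma interaction, 0 of 15801, 0%), and 543 (3.44%) had an unadjusted p under 0.05.

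**Figure D5:**
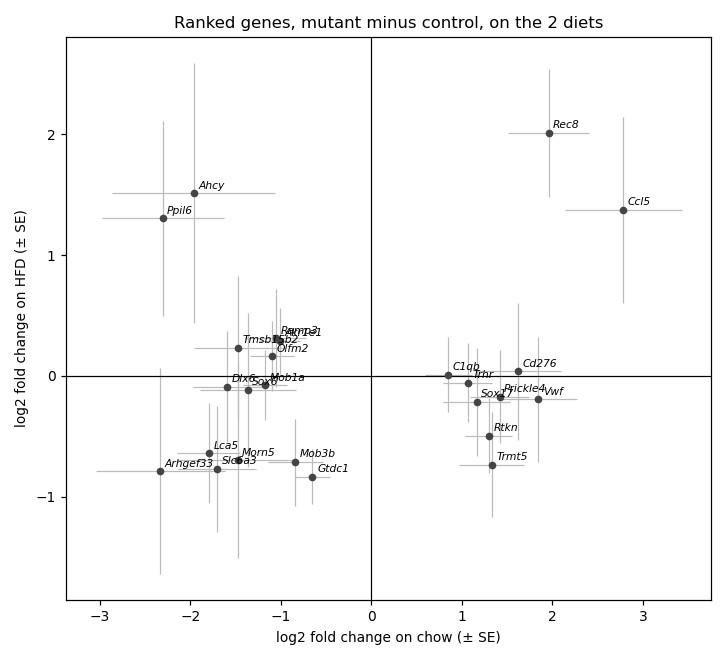
Log2 fold change on HFD (y axis) against that on chow (x axis) for the 25 described ranked genes, mutant minus control, with bars giving 1 SE in each direction. Rec8 and Ccl5 lie in the upper right, Gtdc1, Mob3b, Lca5, Slc6a3, Morn5 and Arhgef33 in the lower left, Ahcy and Ppil6 in the upper left, and the other genes within 1 of 0 on the HFD axis.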

How the data were processed

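Libraries were prepared by the authors from total RNA of microdissected arcuate nucleus (NEBNext Ultra II, NovaSeq 6000). The authors aligned reads with Kallisto in gene mode to mm10 and processed them with Sleuth, and deposited 1 signal value per gene and library. Tool versions, annotation release, gene filter, scaling between libraries and use of strand are not given in the sources used here. Depth is unknown, so no counting intervals or detection floors are given.

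All 12 columns matched a label by name and 0 were unmapped. Symbols and positions came from GENCODE M21 (GRCm38), which matched 16633 of 16640 genes. Values were transformed as log2(value + 1), and limma 3.58.1 with a mean-variance trend (R 4.3.3) was fitted to the 4 groups, two-sided, with Benjamini-Hochberg adjustment over 15801 genes. The fit was tested on simulated data.

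The members, lists and tests were chosen with earlier results of these data known. Named genes were Esr1 and Nkx2-1, the 15 higher and 15 lower protein-coding genes with the widest gap and a mean of at least 5, up to 4 members per list and direction by fold change, and genes that define a list. Ccn3, Fst, Rps7, Grp and Penk were counted but not described. The 89 lists were described by counts and medians, without set tests, and some genes are not reported here. Promoter windows were taken from a RefSeq table for GRCm38.p6. Alternatives covered normalisation, trend, filters, pseudocount, samples, weights, marker covariates and leaving out each chow library. The ventromedial covariate and the joint removal of 2 libraries were chosen after seeing the data.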

Additional observations from a re-analysis of the deposited data

Results flagged for a closer look

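Among the 139 genes named by rule, 1 of the 4 mutant chow libraries stood apart from the others past the 95% critical value of Dixon's ratio in 13 genes, and chance alone flags about 1 in 20 groups. In 10 of the 13 that library was mutant chow replicate 3, with a signal of 15.7 for Trhr, 0 for Ahcy, 2.63 for Ramp3, 71.2 for Hes5, 16.5 for Irf8, 355 for Bcan, 10.5 for Fam19a1, 410 for Rpl10, 32.2 for Slc22a5 and 112 for Ift22. The other 3 were Trmt5 (54.9, replicate 4), C1qc (97.7, replicate 2) and Zfp113 (15.2, replicate 1).

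In 18 genes every mutant library lay on one side of the controls on chow and on the opposite side on HFD. They were 13% of the 138 named genes whose chow groups did not overlap, while 85 (11.9%) of all 713 such genes did so and 55 (7.71%) lay on the same side on both diets. The difference between the diets (log2, HFD effect minus chow effect) was tested by the limma interaction, and none passed after adjustment over all genes. Genes higher in mutants on chow and lower on HFD were Igf1 (-2.93), Gbp3 (-2.22), Hes5 (-2.07), Rtkn (-1.79), Slc18b1 (-1.41), Kcnc2 (-0.91), Ift22 (-0.83), Ezh1 (-0.79) and Tmem119 (-0.59). Genes lower on chow and higher on HFD were Ppil6 (3.61), Cox6a2 (3.09), Dlx5 (1.75), Slc22a3 (1.74), Akr1e1 (1.30), Psmd10 (1.09), Slc52a2 (0.87), Oprl1 (0.61) and Hrh3 (0.53). The smallest unadjusted p was 0.0002, for Cox6a2, and the largest 0.0734, for Tmem119. The libraries labelled mutant HFD carry Esr1 near the control level.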

How the results depend on the processing

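No paired analysis was possible because the labels give no replicate number that ties a mutant to a control. The 3 genes past the adjusted threshold numbered 1 with only the 7 chow libraries, 1 with the ventromedial score as covariate, and 1 to 4 when a chow library was left out, with 1 each without control chow replicate 1, control chow replicate 2 and mutant chow replicate 4. Genes higher at an unadjusted p under 0.05 numbered 262 with a mean of at least 5 (fewer genes tested). Genes lower numbered 166 after rescaling columns to a sum of 1000000 and 235 to 545 when a library was left out, the 545 without control chow replicate 1. Genes higher without overlap numbered 669 to 1074 and genes lower 527 to 1132 with 1 library fewer, and 1614 and 1680 without both libraries that stand apart, as fewer samples overlap less often. Rescaling, which moved the median of all genes from 0.01 to 0.10, gave 198 genes lower without overlap and 473 higher.

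Of 2470 fold changes of named genes under 18 alternatives, 5 changed sign. None of these genes, which leave out Ccn3, Fst and Rps7, passed the adjusted threshold as reported, so they had no call to lose, and no alternative gave them one. Nkx2-1 (0.08) ranged from -0.0467 to 0.2946 with 1 library left out, below 0 without control chow replicates 1 (-0.0108) and 3. With the ventromedial score as covariate Nkd1 was -0.191, Cplx1 -0.263 and Calm3 -0.0095. Of 360 medians of 20 lists, 339 moved by less than 1 SD between libraries.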

Other observations

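Large families lay close to the share of all genes. Of 284 solute carriers, 10 were higher and 6 lower without overlap (5.63%). Of 361 zinc finger genes named Zfp, 9 were higher and 9 lower (4.99%), and Zfp583 had the largest ratio named (3.08). Of 76 potassium channel genes, 3 were higher and 1 lower (5.26%), with Kcnu1 at 1.01, 1.69 and 1.07 in controls and 4.54, 5.66, 12.7 and 2.89 in mutants. Genes of cell cycle (32), glycolysis (27), sterol and fatty acid synthesis (38) and GABA and glycine receptors (20) had 0 members apart.

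Among 64 matrix genes, 2 were higher and 2 lower without overlap (6.25%). Bcan, the brain proteoglycan brevican (211, 207 and 192 in controls, 272, 258, 355 and 273 in mutants), and Timp4, a protease inhibitor (ratio 1.54), were higher. The basement membrane genes Nid1 (30.8% of control) and Lamb2 (78.8%) were lower. Of 57 Rab GTPases, 1 was higher and 2 lower without overlap (5.26%). Rab3b, which acts in vesicle release, was 154, 161 and 179 in controls and 99.2, 111, 101 and 120 in mutants. Rab8a was at 56.7% of control. Gpr83, a receptor of a granin-family peptide, was 26.4, 14.7 and 28.3 in controls and 40.0, 42.1, 59.6 and 44.7 in mutants.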
